A study of Mus musculus with 4 samples.

Results

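Interferon response genes are described here in leukemia stem cells (LSCs), the cells held to sustain an acute myeloid leukemia (AML), from mice with and without B7-H4. The 35 genes are a given list of interferon-inducible genes and of the factors that switch them on, and all 35 were found by symbol among the 27179 genes of the table. RNA was sequenced from 4 samples, 2 wild type and 2 B7-H4-null, one library each. All came from bone marrow of a mouse AML model on the C57BL/6 strain and were sorted for a yellow fluorescent protein, Mac-1 and c-Kit. The sources used here do not give the age of the mice, the agent that drove the leukemia or the way B7-H4 was removed. Nothing in the labels says that the replicates came from separate animals, so a p-value below reflects no more than how far these samples spread, and that spread may be technical.

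Interferons are secreted proteins that warn cells of viral infection. Type I interferons (alpha and beta) bind the receptor chains Ifnar1 and Ifnar2, and the kinases Jak1 and Tyk2 then phosphorylate STAT proteins such as Stat2, which join Irf9 and bind a DNA element called the interferon-stimulated response element (ISRE). Interferon gamma acts through Ifngr1 and Ifngr2 and the kinases Jak1 and Jak2, and its target genes often hold a gamma-activated site (GAS). The induced genes include RNA sensors, enzymes that degrade or block viral RNA, GTPases and membrane proteins, and some of them are kept at a high steady level in blood stem and progenitor cells without infection.

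Values are RPKM, reads scaled by the length of the gene and by the total of the library, so that levels can be set side by side between genes. Library totals recovered from the table lay between 9419425 and 10814448 reads, so that 3 reads in a gene of 2 kb were worth 0.139 to 0.159 RPKM. Differences are B7-H4-null minus wild type on the scale log2(RPKM + 1), which understates the change of low genes, each with its standard error (SE). They were tested with limma over the 12107 genes that reached 1 RPKM in 2 or more libraries, and adjusted p-values are Benjamini-Hochberg values over all of these, with a threshold of 0.05. Vtcn1, which encodes B7-H4, had 0 reads in each wild-type library and 1 read in each B7-H4-null library, too few to check the genotype. Itgam, Itgb2 and Kit, the genes of the sort markers Mac-1 and c-Kit, stood at 7.19 RPKM or more in every library. In bulk RNA, fewer cells of a type and less RNA per cell cannot be told apart.

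The promoters of many of these genes hold the letters of the element by which the group is known, both in genes that were well read in these cells and in genes that were not. Promoter windows from RefSeq (build GRCm38.p6), 250 bases before to 50 after an annotated start, were held for 29 of the 35 genes. The core of the ISRE was searched on both strands as GAAA, then 2 bases of any kind, then GAAA, and matches may overlap. It was in the window of 17 of these 29 genes (58.6%), against 1079 of 27025 genes with a window (3.99%). The GAS core TTCNNNGAA was in 8 of 29 (27.6%), against 9.55% of all genes with a window. A match is a run of letters and no evidence of binding. The stretches below are 60 bases each, on the strand of the gene, and TTTC is GAAA read on the other strand. Capitals mark the ISRE matches in the first 8 stretches and the GAS match in the last. The first 5 belong to genes that were near 0 or low in these cells, and the next 3 to genes that were well expressed. The last is the GAS match of Irf1, a well-expressed gene whose windows had no ISRE match. The stretch of Bst2 also holds a GAS match, which is not marked as one.
Ifit1: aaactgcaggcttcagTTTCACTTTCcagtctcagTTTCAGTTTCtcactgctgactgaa
Ifit3: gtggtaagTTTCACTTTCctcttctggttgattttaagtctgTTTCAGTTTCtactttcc
Ifit3b: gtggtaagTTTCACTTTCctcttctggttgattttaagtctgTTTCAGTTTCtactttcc
Isg15: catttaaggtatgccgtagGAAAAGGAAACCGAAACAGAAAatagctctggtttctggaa
Rsad2: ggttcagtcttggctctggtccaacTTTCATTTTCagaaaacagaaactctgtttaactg
Gbp3: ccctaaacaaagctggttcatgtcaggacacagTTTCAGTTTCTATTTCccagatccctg
Bst2: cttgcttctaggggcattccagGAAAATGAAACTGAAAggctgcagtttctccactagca
Ifitm2: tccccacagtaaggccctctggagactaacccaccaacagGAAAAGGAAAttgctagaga
Irf1: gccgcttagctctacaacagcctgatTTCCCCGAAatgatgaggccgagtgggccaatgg

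On GRCm38.p6 these stretches lie at chr19:34640769-34640828 (Ifit1, plus strand), chr19:34583365-34583424 (Ifit3, plus), chr19:34607761-34607820 (Ifit3b, plus) and chr4:156200856-156200915 (Isg15, minus). Those of Rsad2 (minus), Gbp3 (plus), Bst2 (minus), Ifitm2 (minus) and Irf1 (plus) lie at chr12:26456538-26456597, chr3:142559966-142560025, chr8:71537565-71537624, chr7:140955988-140956047 and chr11:53769898-53769957. The stretches were placed before the annotated start of the window and shifted off exons of the GENCODE M21 annotation, so that none of the 9 touches one. Those of Ifit3, Ifit3b and Ifitm2 lie inside the annotated span of the gene, and that of Gbp3 reaches into it. The stretches of Ifit3 and Ifit3b are the same run of letters at different places of chromosome 19. The mean level over the 4 libraries ran from 0 to 168 RPKM among the 17 genes with an ISRE match and from 0 to 32.8 RPKM among the 12 without one, and 6 of the 17 and 3 of the 12 lay below 1 RPKM.

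The list as a whole was mostly low. Of the 35 genes, 10 had a mean of 10 RPKM or more over the 4 libraries, 14 lay between 1 and 10 RPKM, and 11 lay below 1 RPKM. Ifitm2, Bst2, Irf1 and Samhd1 were the 4 highest by mean, at 168, 46.8, 32.8 and 22.4 RPKM. Of the 11 lowest, Ifit3b and Ifi44 had no read in any library, and Ifit1 had 1 read in each.

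**Figure D1:**
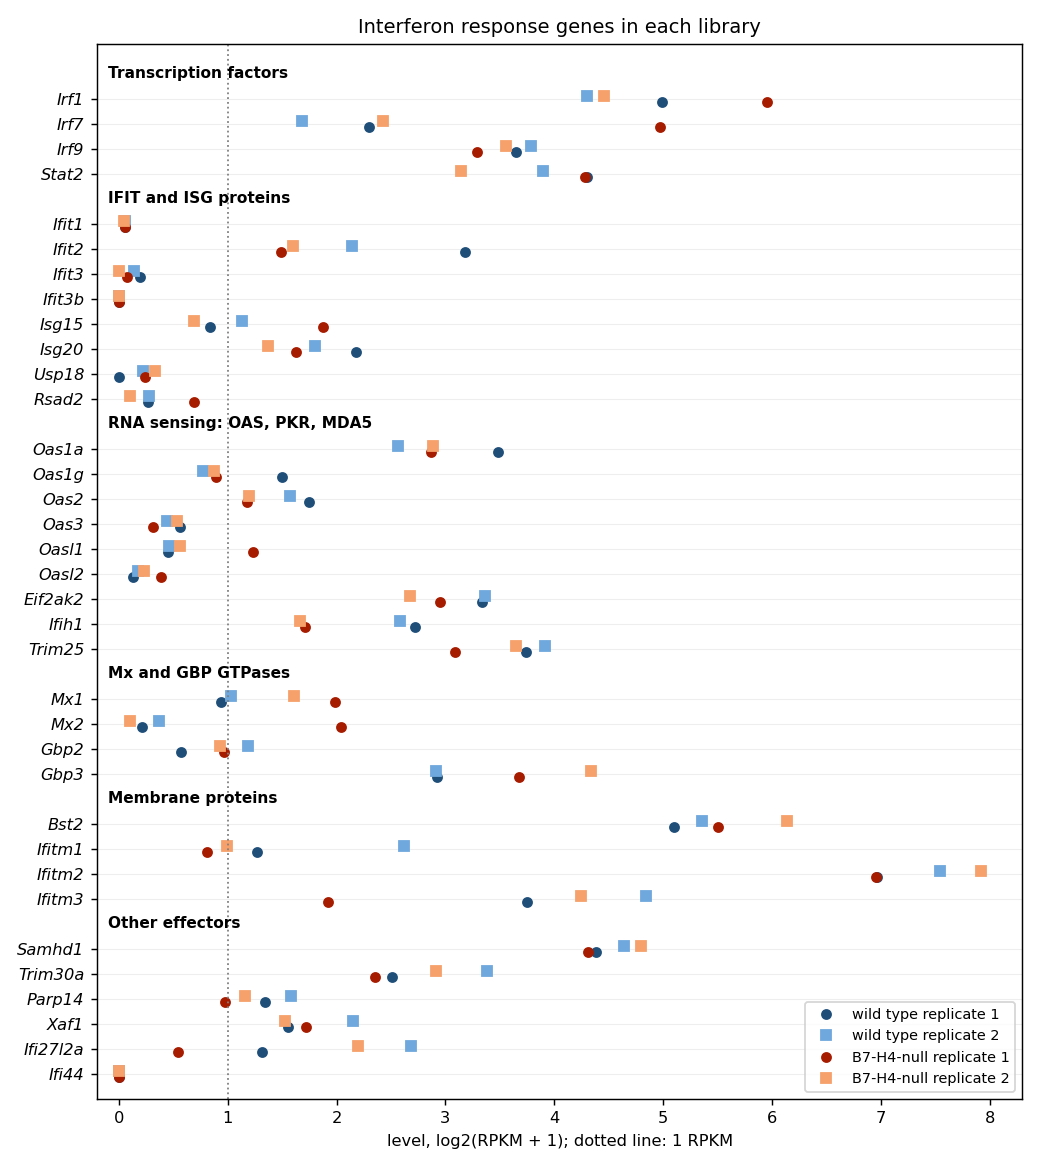
Level of each of the 35 interferon response genes as log2(RPKM + 1) in the 4 libraries, grouped by role, with circles for replicate 1 and squares for replicate 2, blue for wild type and red or orange for B7-H4-null. The dotted line marks 1 RPKM, which 8 genes reach in no library, while Ifitm2 lies highest, where the symbols of both replicates numbered 1 coincide.

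No gene of the list passed the test between genotypes. Of the 35, 23 were tested, and 0 were called, where 12 of the 12107 genes tested were called (0.0991%). Limma with voom weights on the recovered reads also called 0. At an unadjusted p under 0.05, 2 members were higher in B7-H4-null LSCs, Gbp3 and Mx1, and 2 were lower, Ifih1 and Ifit2, against 5.05% of all genes tested higher and 7.2% lower. After median-ratio scaling of the libraries 3 members were higher and 2 lower at that p, against 6.45% and 5.32% of all genes. Of the 23 members, 15 had a difference below 0 (65.2%), beside 58.5% of all genes tested, or 49.4% after that scaling. The median difference of the 23 members was −0.32, beside −0.09 over all genes tested. After that scaling it was −0.23, beside 0.01.

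In 4 members both B7-H4-null libraries lay above both wild-type libraries, and in 9 both lay below. These are 17.4% and 39.1% of the tested members, beside 16% and 28.0% of all genes tested. After median-ratio scaling the members' counts were again 4 and 9, and the shares of all genes were 22.1% and 22.2%. The 4 were Irf7, Gbp3, Mx1 and Bst2, and the 9 were Ifih1, Ifit2, Ifitm1, Eif2ak2, Oas2, Isg20, Trim25, Parp14 and Irf9. One of the 23, Ifitm1, reached the filter in wild-type libraries only, so its position was in part set by the filter.

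**Figure D2:**
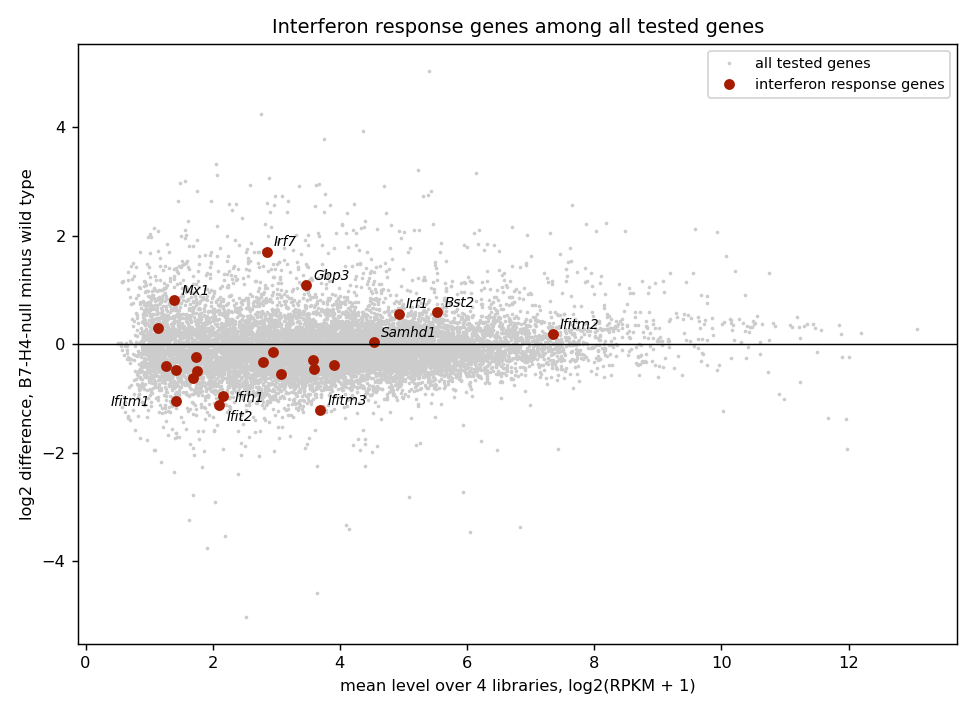
Difference between genotypes against the mean level for all 12107 tested genes (grey) and the 23 tested interferon response genes (red). The red points lie between −1.21 (Ifitm3) and 1.71 (Irf7), and the grey points between −5.02 and 5.03.

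Interferons themselves were not read at a level that could be compared. Of 21 interferon genes (alpha, beta, gamma and others), 6 had any read, and the reads of all 21 summed to 1 and 2 in wild type replicates 1 and 2 and to 2 and 5 in B7-H4-null replicates 1 and 2. The highest value of any interferon gene in any library was 0.169 RPKM.

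The receptors and kinases that read type I interferons and interferon gamma were present in every library. Ifnar1, the first chain of the type I receptor, stood at 10.4 and 14.2 RPKM in wild type against 11.1 and 11.98 RPKM in B7-H4-null replicates 1 and 2, and its partner Ifnar2 had 39.0 and 45.0 against 38.0 and 41.6 RPKM. For both chains the groups overlapped. Ifngr1, which binds interferon gamma, was the most abundant of them, with 252 and 225 RPKM in wild type against 152 and 287 RPKM in B7-H4-null. Ifngr2, the chain that brings Jak2 to that receptor, stood at 25.5 and 36.1 RPKM in wild type against 14.0 and 17.4 RPKM in B7-H4-null, without overlap. Its difference was −0.91 ± 0.281 (SE, adjusted p = 0.32, limma).

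Of the kinases, Jak1 and Jak2 lay lower in both B7-H4-null libraries, at 30.3 and 33.3 RPKM for Jak1 and 15.8 and 14.4 RPKM for Jak2, against 37.5 and 47.5 RPKM and 17.3 and 26.4 RPKM in wild type (adjusted p = 0.578 and 0.56). Tyk2 had 24.8 and 22.0 against 27.0 and 20.2 RPKM, with overlap. Stat3, which other cytokines use more, had 60.4 and 86.3 against 32.2 and 50.8 RPKM (adjusted p = 0.383). Of the 11 receptors, kinases and STATs, 10 were tested, 0 passed, all 10 differences were below 0 and the median was −0.13. After median-ratio scaling 5 lay above and 5 below 0, so the common direction depended on the scaling. Ifnlr1, a receptor chain for interferon lambda, was the one not tested. It had 1.23 and 0.753 RPKM in wild type against 0.132 and 0.161 RPKM in B7-H4-null, on 50, 30, 5 and 7 reads.

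The 4 transcription factors of the list did not share a direction. Irf9 and Stat2 are parts of the complex that binds the ISRE. Irf9 (gene ID 16391) stood at 11.5 and 12.8 RPKM in wild type against 8.81 and 10.8 RPKM in B7-H4-null, and Stat2 (gene ID 20847) had 18.7 and 13.9 against 18.5 and 7.85 RPKM. Irf9 was lower in both B7-H4-null libraries by a small margin, and Stat2 was low in B7-H4-null replicate 2 only. Their differences were −0.29 ± 0.249 and −0.38 ± 0.405 (SE, adjusted p = 0.679 and 0.738, limma), and that of Stat2 was 0.19 without B7-H4-null replicate 2. Exons of Irf9 overlap those of Rnf31 on the same strand, and Rnf31 had 14.2 and 11.2 against 14.5 and 13.6 RPKM.

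Irf7 and Irf1 were high in one B7-H4-null library. Irf7 amplifies the type I response and is itself induced by it. Irf7 (gene ID 54123, chromosome 7, 141263183 to 141266499) stood at 3.92 and 2.22 RPKM in wild type, 30.4 RPKM in B7-H4-null replicate 1 and 4.38 RPKM in B7-H4-null replicate 2. The groups did not overlap, yet B7-H4-null replicate 2 lay close to wild type. The difference was 1.71 ± 0.754 (SE, adjusted p = 0.428, limma). It was 0.43 when B7-H4-null replicate 1 was left out. Exons of Phrf1 overlap Irf7 on the other strand and the libraries do not mark strand, and Phrf1 stood at 31.5 and 20.7 RPKM in wild type against 25.7 and 24.1 RPKM in B7-H4-null.

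Irf1, which is switched on by interferon gamma and by inflammatory signals, showed the same library on top. Irf1 (gene ID 16362, chromosome 11, 53770014 to 53778374) stood at 30.7 and 18.7 RPKM in wild type against 60.9 and 21.0 RPKM in B7-H4-null. The groups overlapped. The difference was 0.56 ± 0.507 (SE, adjusted p = 0.692), or −0.18 with B7-H4-null replicate 1 left out. That library was also the highest in the sum of 14 immediate early genes, the first to answer a stimulus or the handling of cells, at 12248 RPKM, against 5653 RPKM in B7-H4-null replicate 2 and 2345 and 3554 RPKM in wild type. Of the 13 immediate early genes tested, 10 were higher in B7-H4-null at an unadjusted p under 0.05, beside 5.05% of all genes tested, and 0 were called. The part of these genes in the levels of Irf7 and Irf1 was not tested.

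**Figure D3:**
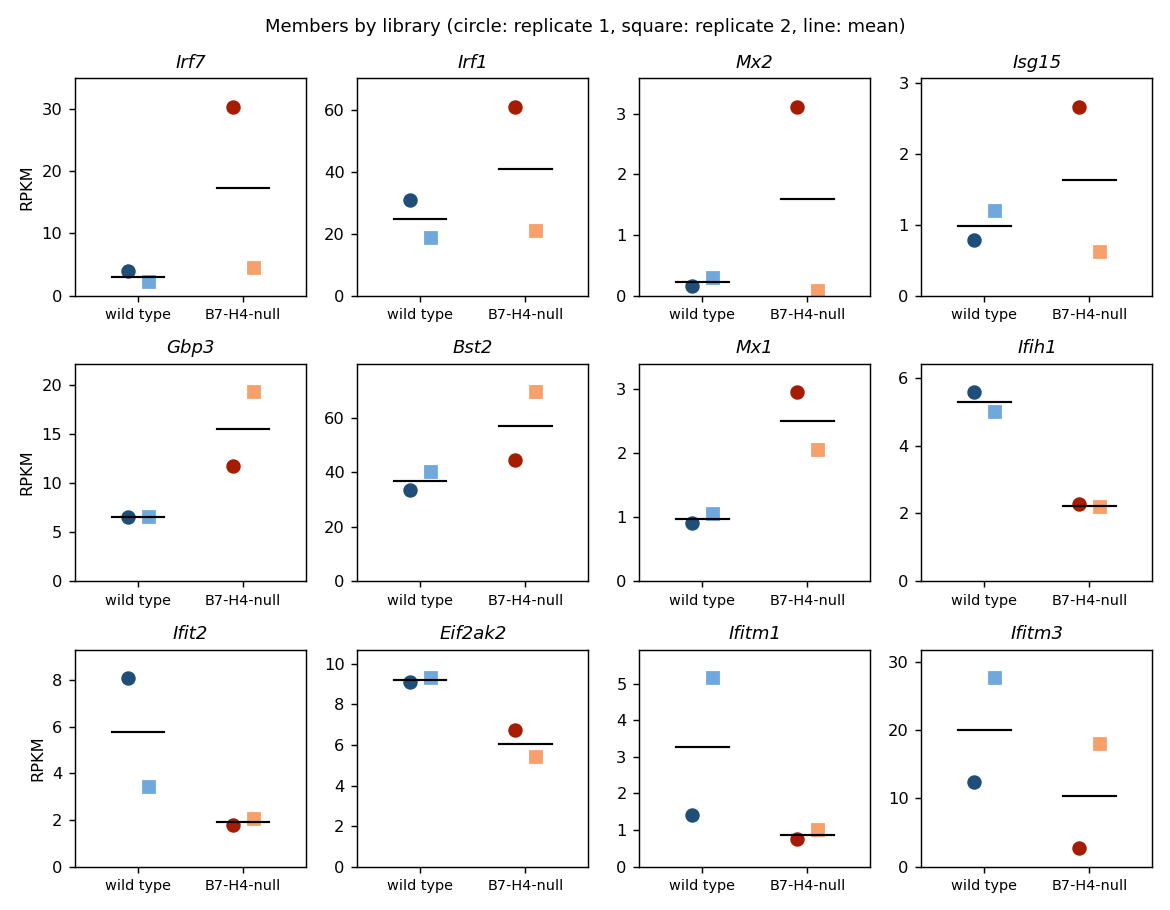
RPKM of 12 members in each library, with circles for replicate 1, squares for replicate 2 and lines for the mean of the 2 libraries of a genotype, each panel on its own linear axis from 0. In Irf7, Irf1, Mx2 and Isg15 the circle of B7-H4-null stands alone at the top, in Gbp3, Bst2 and Mx1 both B7-H4-null libraries lie above wild type, and in Ifih1, Ifit2, Eif2ak2 and Ifitm1 both lie below.

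The IFIT genes, a cluster on chromosome 19 whose proteins bind foreign RNA or scaffold antiviral signalling, were read very unequally. Ifit2 (gene ID 15958, 34550550 to 34576534) was read in every library, with 8.09 and 3.42 RPKM in wild type against 1.80 and 2.04 RPKM in B7-H4-null. The groups did not overlap, and wild type replicate 1 was the highest. The means were 5.75 ± 3.30 and 1.92 ± 0.167 RPKM (SD, n = 2), and the difference was −1.12 ± 0.379 (SE, adjusted p = 0.334, limma), or −0.60 without wild type replicate 1. Ifit3, 6.59 kb further along, had 3, 2, 1 and 0 reads in wild type replicates 1 and 2 and B7-H4-null replicates 1 and 2. Ifit1, at the other end of the cluster, had 1 read in each library, from 0.0351 to 0.0402 RPKM, and Ifit3b had 0 reads. Transcripts of Ifit3 and Ifit3b are 98.0% identical over 1697 aligned bases, so reads of one could be assigned to the other or to neither.

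Isg15, Isg20, Usp18 and Rsad2 were low. Isg15, a ubiquitin-like protein that is attached to others during the response, stood at 0.782 and 1.198 RPKM in wild type against 2.67 and 0.612 RPKM in B7-H4-null, or 15 against 24 reads in all. Both B7-H4-null libraries were at the extremes, one above and one below wild type, and the difference of 0.30 ± 0.426 became −0.30 without B7-H4-null replicate 1. Usp18, the protease that removes Isg15 and dampens the receptor, had 0 and 0.171 RPKM in wild type against 0.1798 and 0.261 RPKM in B7-H4-null, on 3 and 8 reads in all. Rsad2 (viperin), an enzyme that makes a chain-ending nucleotide, stood at 0.208 and 0.213 RPKM in wild type against 0.617 and 0.0733 RPKM in B7-H4-null, again with the B7-H4-null libraries at both extremes. Isg20, a nuclease of RNA, had 3.54 and 2.50 against 2.09 and 1.58 RPKM, lower in both B7-H4-null libraries (difference −0.50 ± 0.283, adjusted p = 0.542).

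Among the sensors of viral RNA, Ifih1 had the smallest p of the list. Ifih1, which encodes the double-stranded RNA sensor MDA5 (gene ID 71586, chromosome 2, 62595618 to 62646255), stood at 5.57 and 4.98 RPKM in wild type against 2.27 and 2.18 RPKM in B7-H4-null. The gap between the groups was larger than the spread within either. The means of 5.28 ± 0.420 and 2.22 ± 0.0649 RPKM (SD, n = 2) rest on 585 and 248 reads and differ 2.37-fold. The difference of −0.96 ± 0.251 (SE) had an adjusted p of 0.265 (limma), and it ran from −1.03 to −0.89 when any one library was left out. Ddx58, the gene of the related sensor RIG-I and no member of the list, stood at 3.09 and 2.22 RPKM in wild type against 1.55 and 0.973 RPKM in B7-H4-null (difference −0.70 ± 0.292, adjusted p = 0.408).

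Eif2ak2 encodes PKR, a kinase that stops translation when it meets double-stranded RNA. It stood at 9.09 and 9.31 RPKM in wild type against 6.72 and 5.39 RPKM in B7-H4-null, without overlap (gene ID 19106, difference −0.54 ± 0.25, adjusted p = 0.453). Trim25, the ubiquitin ligase that helps RIG-I signal, had 12.4 and 14.1 against 7.499 and 11.6 RPKM, also without overlap (difference −0.46 ± 0.285, adjusted p = 0.57). The distance between B7-H4-null replicate 2 and wild type was small for Trim25, and its difference was −0.18 without B7-H4-null replicate 1.

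The oligoadenylate synthetases make the signal that activates the nuclease RNase L, and Oas1a was the only one of the 6 members above 4 RPKM. Oas1a stood at 10.2 and 4.90 RPKM in wild type against 6.29 and 6.41 RPKM in B7-H4-null, with the wild-type libraries on either side of the B7-H4-null ones. Its neighbour Oas1g, whose transcript is 97.5% identical to that of Oas1a, so that reads may be shared, had 1.83 and 0.707 against 0.852 and 0.835 RPKM. In both genes wild type replicate 1 was the highest library. Oas2 stood at 2.35 and 1.98 RPKM in wild type against 1.26 and 1.29 RPKM in B7-H4-null, without overlap (difference −0.47 ± 0.263, adjusted p = 0.531), on 84 and 50 reads. Oas3 stayed between 0.248 and 0.481 RPKM. Oasl1 and Oasl2, relatives without the enzyme activity in the case of Oasl1, had 0.371 and 0.379 against 1.35 and 0.479 RPKM and 0.0943 and 0.128 against 0.305 and 0.177 RPKM. B7-H4-null replicate 1 was the highest library for both, but on few reads. In wild type and then B7-H4-null replicates 1 and 2, Oasl1 had 8, 8, 27 and 11 reads, and Oasl2 had 3, 4, 9 and 6.

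The GTPases of the Mx and guanylate-binding families held both of the members at an unadjusted p under 0.05 in the higher direction. Gbp3 (gene ID 55932, chromosome 3, 142560016 to 142573213), a guanylate-binding protein of the defence against intracellular microbes, stood at 6.57 and 6.52 RPKM in wild type against 11.8 and 19.3 RPKM in B7-H4-null. Both B7-H4-null libraries stood clear of wild type, though they differed from each other. The means of 6.55 ± 0.0365 and 15.5 ± 5.29 RPKM (SD, n = 2) rest on 347 and 843 reads and differ 2.37-fold, with a difference of 1.09 ± 0.298 (SE, adjusted p = 0.289, limma). Leaving out B7-H4-null replicate 2 gave 0.76, and leaving out replicate 1 of that genotype gave 1.43. Gbp2, 47.5 kb away, lay between 0.482 and 1.27 RPKM, with wild type at both ends.

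Mx1 and Mx2 encode dynamin-like GTPases that block viruses, and laboratory strains such as C57BL/6 are known to carry an Mx1 allele that makes no working protein. Mx1 (gene ID 17857, chromosome 16, 97447035 to 97462906) stood at 0.914 and 1.05 RPKM in wild type against 2.95 and 2.06 RPKM in B7-H4-null, without overlap, on 53 and 135 reads. The difference was 0.81 ± 0.28 (SE, adjusted p = 0.336). Mx2, 73.2 kb away, had 0.163 and 0.291 RPKM in wild type, 3.11 RPKM in B7-H4-null replicate 1 and 0.0764 RPKM in B7-H4-null replicate 2, or 4, 7, 71 and 2 reads. Its B7-H4-null libraries were the highest and the lowest of the 4, and it reached 1 RPKM in 1 library and was not tested.

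Among the membrane proteins were Ifitm2 and Bst2, the members with the highest mean levels. Bst2 (tetherin, gene ID 69550, chromosome 8, 71534255 to 71537472), which holds budding viruses at the cell surface, stood at 33.3 and 40.1 RPKM in wild type against 44.5 and 69.4 RPKM in B7-H4-null. The groups did not overlap, but B7-H4-null replicate 1 lay near wild type. The difference was 0.59 ± 0.3 (SE, adjusted p = 0.491), or 0.28 when B7-H4-null replicate 2 was left out. Bst2 is also a surface marker of plasmacytoid dendritic cells, the main interferon producers. Of 8 marker genes listed for these cells without Bst2, 6 stayed below 1 RPKM in every library, and Siglech, which defines them, had 0 RPKM in 3 libraries and 0.231 RPKM in B7-H4-null replicate 2. The summed level of the 8 was 17.7 and 28.9 RPKM in wild type against 41.2 and 58.5 RPKM in B7-H4-null, nearly all of it from Runx2 and Tcf4, which other blood cells also express. Their part in the level of Bst2 was not tested.

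The IFITM proteins keep viruses from fusing with cell membranes, and Ifitm1, Ifitm2 and Ifitm3 lie together on chromosome 7, from 140954837 to 141010744. Ifitm2 stood at 124 and 185 RPKM in wild type against 123 and 241 RPKM in B7-H4-null. Ifitm3 stood at 12.5 and 27.7 RPKM in wild type against 2.79 and 18.0 RPKM in B7-H4-null. Ifitm1, known as a marker of early blood progenitors, stood at 1.41 and 5.15 RPKM in wild type against 0.758 and 0.991 RPKM in B7-H4-null.

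All 3 were higher in replicate 2 than in replicate 1 of both genotypes. Ifitm1 did not overlap between the groups, Ifitm2 and Ifitm3 did. The differences were −1.04 ± 0.454 for Ifitm1, 0.19 ± 0.392 for Ifitm2 and −1.21 ± 0.739 for Ifitm3 (SE, adjusted p = 0.422, 0.877 and 0.566, limma). For Ifitm3 it was −2.38 when B7-H4-null replicate 2 was left out and −0.05 when replicate 1 of that genotype was, and for Ifitm1 it was −0.36 without wild type replicate 2.

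**Figure D4:**
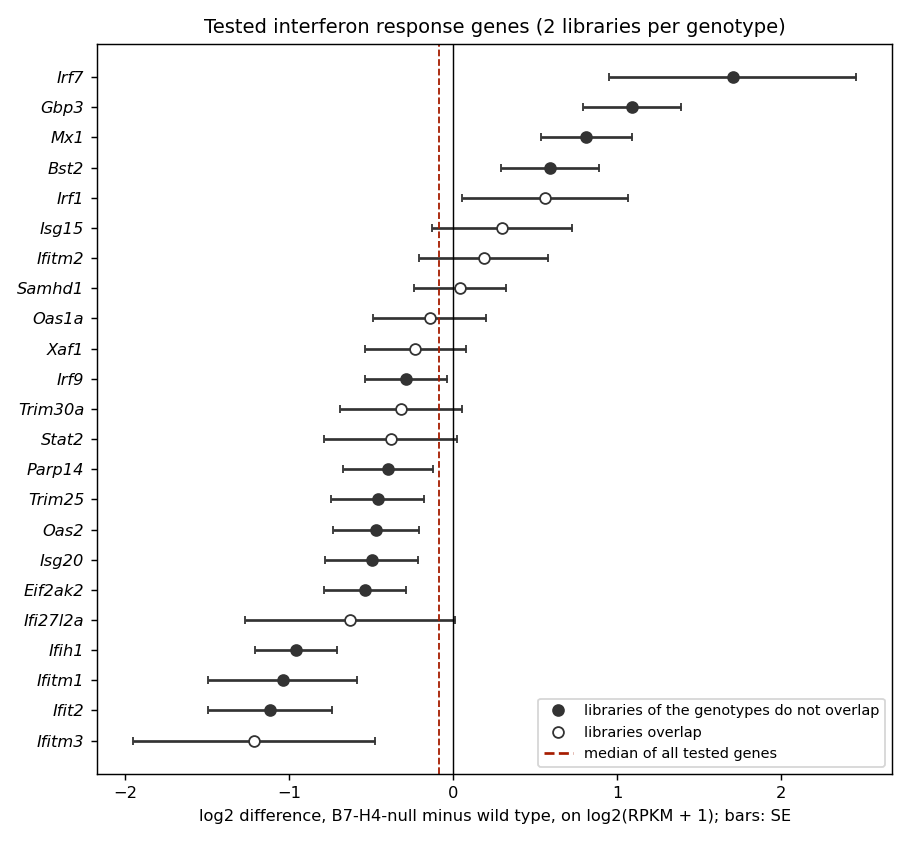
Difference between genotypes with its SE for the 23 tested members, filled where the 2 libraries of each genotype do not overlap (4 higher, 9 lower) and open where they do (10). The dashed line is the median of all tested genes, −0.09, and the widest bar is that of Irf7 (0.754).

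The other effectors did not lie apart between genotypes, except Parp14. Samhd1, which breaks down the nucleotides that reverse transcription needs, was well expressed, with 19.8 and 24.0 RPKM in wild type against 18.9 and 26.7 RPKM in B7-H4-null (difference 0.04 ± 0.278). Trim30a, a ubiquitin ligase, had 4.71 and 9.45 against 4.11 and 6.52 RPKM. Ifi27l2a, a small interferon-induced protein, had 1.49 and 5.44 against 0.459 and 3.59 RPKM (difference −0.63 ± 0.639, adjusted p = 0.727). In these 3 genes the libraries numbered 2 were above those numbered 1 in both genotypes, as in the IFITM genes. This order was found in 10 of the 23 tested members (43.5%), beside 38.8% of all genes tested.

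Xaf1, a partner of an inhibitor of apoptosis, stood at 1.94 and 3.45 RPKM in wild type against 2.29 and 1.89 RPKM in B7-H4-null, with overlap. Parp14, an enzyme that attaches ADP-ribose, had 1.54 and 1.999 against 0.966 and 1.24 RPKM, lower in both B7-H4-null libraries (difference −0.40 ± 0.275, adjusted p = 0.607). Ifi44 had no read in any library.

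B7-H4-null replicate 1 stood at an end of the range in many members, and also in many of all genes tested. This was looked at after the values were known. Over the 33 members with any read, that library was the highest in 9 and the lowest in 12. Shares of all genes with any read were not computed. The 9 were Irf1, Irf7, Isg15, Mx1, Mx2, Oasl1, Oasl2, Rsad2 and Ifit1, the last with 1 read in each library. Of these, Mx2, Oasl1, Oasl2, Rsad2 and Ifit1 were too low to be tested. Over the 23 tested members it was the highest in 17.4% and the lowest in 47.8%, beside 17.6% and 39% of all genes tested. Socs1, the main feedback inhibitor of the kinases, stood at 8.40 and 5.61 RPKM in wild type against 43.2 and 13.3 RPKM in B7-H4-null (difference 1.68 ± 0.521, adjusted p = 0.322), or 0.86 when B7-H4-null replicate 1 was left out. Cxcl10, an interferon-induced chemokine chosen after its values were seen, stood at 0.358 and 0.366 RPKM in wild type against 2.89 and 0.336 RPKM in B7-H4-null. Many others of its list of 43 were not highest in B7-H4-null replicate 1. Cmpk2, Helz2, Znfx1 and Pml were highest in wild type replicate 1, and Slfn1, Slfn2 and Parp12 were lowest in B7-H4-null replicate 1.

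Other lists of the pathway were also without a called gene. Of their 127 genes 78 were tested and 0 passed in limma. At an unadjusted p under 0.05, 1 was higher and 14 were lower, beside 5.05% and 7.2% of all genes tested. After median-ratio scaling these counts were 1 and 10, beside 6.45% and 5.32%. Of the feedback inhibitors all 9 were tested. Socs1 was the one higher at an unadjusted p under 0.05, and Pias3, which blocks STAT proteins, was lower at 5.59 and 4.601 against 8.22 and 9.14 RPKM (adjusted p = 0.364). Its relatives Pias4, at 27.5 and 31.9 against 19.4 and 20.3 RPKM, and Pias1, at 10.97 and 13.3 against 8.51 and 8.52 RPKM, were also below wild type in both B7-H4-null libraries (adjusted p = 0.422 and 0.509). Of the 9 feedback inhibitors 3 lay lower and 2 higher without overlap, and 3 and 3 after median-ratio scaling. After that scaling 1 was higher and 0 were lower at an unadjusted p under 0.05 in limma, so Pias3 was no longer among them. Of the sensors and adaptors 14 of 18 were tested, with a median of −0.31, which was −0.18 with no filter on low genes, at a filter of 5 RPKM and without wild type replicate 2. Traf3, an adaptor of interferon induction, stood at 20.1 and 21.6 RPKM in wild type against 9.53 and 13.6 RPKM in B7-H4-null, and Ticam1, the adaptor TRIF, had 10.9 and 14.2 against 7.05 and 7.65 RPKM (adjusted p = 0.331 and 0.365). Tbk1, the kinase that activates interferon regulatory factors, had 43.5 and 43.97 against 31.7 and 26.8 RPKM (adjusted p = 0.419). None of the 3 overlapped, but they were named for their small p. Of the 14 tested, 5 lay lower and 2 higher without overlap, beside 28.0% and 16% of all genes tested. After median-ratio scaling the counts were the same, beside 22.2% and 22.1%.

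The further interferon-stimulated genes, 33 tested of 43, had a median of −0.23. At an unadjusted p under 0.05, 8 of the 33 were lower and 0 higher, beside 7.2% and 5.05% of all genes tested, and after median-ratio scaling 6 were lower, beside 5.32%. Of the 8, Slfn8 and Trim34a reached the filter in wild-type libraries only, so their place in the count was in part set by the filter. Trim21, an antibody receptor inside the cell, stood at 12.5 and 12.99 RPKM in wild type against 7.38 and 4.53 RPKM in B7-H4-null (difference −1.01 ± 0.288, adjusted p = 0.297). Slfn2, a Schlafen protein that keeps immune cells quiescent, had 47.6 and 105 against 9.31 and 39.0 RPKM (difference −1.82 ± 0.659, adjusted p = 0.357), or −0.84 when B7-H4-null replicate 1 was left out. Slfn1, its relative, had 2.02 and 3.47 against 0.172 and 1.05 RPKM. Parp12, an enzyme that attaches ADP-ribose, had 3.27 and 3.83 against 1.45 and 1.98 RPKM (adjusted p = 0.352). In each of Trim21, Slfn1, Slfn2 and Parp12, which were named for their small p, both wild-type libraries lay above both B7-H4-null ones. Of the 33 tested, 16 lay lower and 2 higher without overlap, beside 28.0% and 16% of all genes tested. Among the 16 were Slfn8, Trim34a and Oas1b, the last at 1.98 and 1.04 against 0.808 and 0.553 RPKM. These reached the filter in wild-type libraries only, so the count of 16 was also in part set by the filter. After median-ratio scaling 10 lay lower and 5 higher, beside 22.2% and 22.1%.

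The GTPases that respond to interferon gamma were mostly unread. Of 16 genes, 4 were at 0 in every library and 5 were tested, and all 5 lay below 0, as did 58.5% of all genes tested. Their median, −0.52, was the value of Irgm2, which had 1.51 and 1.32 against 0.816 and 0.553 RPKM and so reached the filter through wild type only. The median was −0.018 over the 12 genes left with no filter and −0.79 with a pseudocount of 0.1. Irgm1, which acts on membranes around intracellular bacteria and is known to protect blood stem cells, stood at 7.53 and 10.8 RPKM in wild type against 4.58 and 4.11 RPKM in B7-H4-null (difference −0.91 ± 0.275, adjusted p = 0.319). Its relative Igtp had 5.70 and 8.91 against 3.52 and 4.71 RPKM (adjusted p = 0.427), and Ifi47, another of them, 5.13 and 4.09 against 3.05 and 4.03 RPKM (adjusted p = 0.686). The remaining interferon regulatory factors, 7 tested of 9, had Irf8, a factor of monocyte development, at 33.5 and 65.7 against 59.6 and 79.1 RPKM and Irf2, a repressor of interferon genes, at 8.49 and 9.56 against 11.2 and 11.8 RPKM (adjusted p = 0.603 and 0.628). The corepressors Irf2bp2 and Irf2bp1 had 55.6 and 51.7 against 32.6 and 59.5 RPKM and 10.2 and 17.7 against 8.3 and 14.2 RPKM, both with overlap.

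Single libraries moved the medians of several lists. That of the remaining interferon regulatory factors, −0.28, was 0.40 when wild type replicate 2 was left out. Leaving out replicate 1 or 2 of B7-H4-null gave 0.15 or −0.64. That of the feedback inhibitors, −0.17, was −0.51 or −0.049 when replicate 1 or 2 of wild type was left out, and 0.049 or −0.55 when replicate 1 or 2 of B7-H4-null was. That of the receptors, kinases and STATs, −0.13, ran from −0.29 to −0.21 with one library left out.

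**Figure D5:**
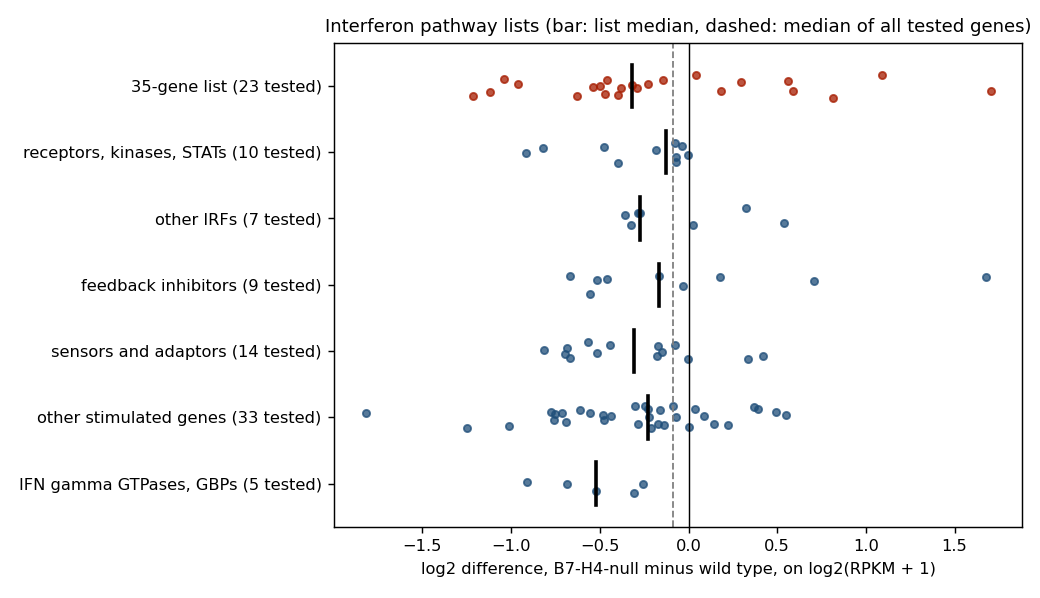
Differences between genotypes of the tested genes of the 35-gene list (red) and of 6 further lists of the interferon pathway (blue), each point a gene and each black bar the median of a list. The medians run from −0.52 to −0.13, left of the dashed median of all tested genes at −0.09, and each list has points on both sides of that line except the gamma GTPases, though with one library left out the medians of the other IRFs and the feedback inhibitors take either sign.

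Markers of blood cell types also lay apart between the groups, with 0 called by limma. The 12 late neutrophil markers summed to 31732 and 24307 RPKM in wild type against 8613 and 12507 RPKM in B7-H4-null, and all 12 were lower in both B7-H4-null libraries, beside 28.0% of all genes tested. After median-ratio scaling 11 were, beside 22.2%. The 12 monocyte and macrophage markers summed to 306 and 345 RPKM against 421 and 581 RPKM, but did not share a direction. Cd68 had 60.5 and 63.4 against 147 and 139 RPKM, whereas Vcam1 had 93.0 and 30.01 against 12.6 and 1.12 RPKM (adjusted p = 0.18 and 0.273). Of the 12 T and NK cell markers 11 stayed below 1 RPKM in every library, as did 6 of 8 B cell markers and 6 of 7 erythroid markers. Whether these markers were read from the sorted leukemia cells or from other cells, and their part in the members' levels, was not tested.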

How the data were processed

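RNA of 4 samples, 2 wild type and 2 B7-H4-null, was sequenced from TruSeq RNA version 2 libraries, which do not mark strand, on a HiSeq2500, per the labels' protocols. The submitters' processing notes name TopHat2 2.0.12 and GRCm38. The sources used here do not give the counting program. The authors deposited one table of RPKM per Entrez gene ID. The unit was read from the values, since low values of a gene are whole multiples of a step. Steps gave library totals and whole reads within 0.001 read for 14606 of 14608 genes above 0 in every library. Symbols came from RefSeq (25275 IDs) and GENCODE (18), and 1886 IDs had none.

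Genes at 1 RPKM or more in 2 libraries (12107) were tested with limma 3.58.1 in R 4.3.3 on log2(RPKM + 1), genotype as the only term, mean-variance trend, two-sided, Benjamini-Hochberg at 0.05, after a check on simulated data. An exact permutation test of 2 against 2 cannot go below p = 0.333. Alternatives were a pseudocount of 0.1, no filter, a filter at 5 RPKM, median-ratio and quantile normalization, no trend, voom, a replicate block and each library left out. The members and lists were chosen with earlier results of these data known. All members are named, with the 4 factors and the 12 of smallest p by sample at least, and of each further list the 4 tested genes of smallest p, with the receptors and kinases. One further gene of that rule is not reported here.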

Additional observations from a re-analysis of the deposited data

How the results depend on the processing

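No alternative called a member, but 3 of the 12 (no filter, and without either B7-H4-null library) called 0 genes in the whole table and so say nothing of the members. With one library left out, an arm has 1 sample, assumed to vary like the other group. The lowest adjusted p of a member in any alternative was 0.105 (limma, Ifitm1 without wild type replicate 1). Genes called over the whole table were 5 higher and 7 lower, 0 and 0 without a filter for low genes, and 0 to 36 higher and 0 to 20 lower when one library was left out, with 0 in both directions without either B7-H4-null library and the highest counts without wild type replicate 1. Labels do not tie libraries of one number together, and deviations of replicate 1 from 2 correlated across genes between genotypes at r = 0.247. With the number as a replicate block 12 genes were higher and 9 lower, and 0 members were called. Members without overlap, 4 higher and 9 lower, were 7 and 10 with no filter and 2 and 3 with the filter at 5 RPKM. In these settings 33 and 12 members were tested. With one library left out, 4 to 6 members were higher and 11 to 14 lower without overlap. With fewer libraries any gene separates more easily, and shares of all genes were not computed for these settings. Whether the members differ there from other genes was therefore not tested. The median of the members, −0.32, was −0.13 with no filter, −0.22 at 5 RPKM, −0.23 after median-ratio scaling, −0.22 after quantile normalization, and −0.37 to −0.18 with one library left out.

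Of 265 alternative values of tested members, 12 changed sign, all with one library left out, and 253 did not. The ranges were −0.30 to 0.89 for Isg15, −0.18 to 1.31 for Irf1, −0.95 to 0.19 for Stat2, −0.60 to 0.32 for Oas1a, −1.46 to 0.20 for Ifi27l2a, −0.53 to 0.070 for Xaf1, −0.75 to 0.12 for Trim30a, −0.20 to 0.28 for Samhd1 and −0.30 to 0.67 for Ifitm2. Among the pathway genes they were −0.28 to 0.13 for Ifnar1, −0.17 to 0.027 for Ifnar2, −0.64 to 0.27 for Ifngr1, −0.20 to 0.20 for Tyk2, −0.70 to 0.15 for Irf2bp2 and −0.66 to 0.087 for Irf2bp1. Median-ratio and quantile scaling gave 0.024 and 0.036 for Ifnar1 and 0.099 and 0.068 for Tyk2, and the former 0.027 for Ifnar2. The causes were not tested. At this depth members under about 3 reads in a library could not be compared.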
